A study of Mus musculus with 12 samples.

Results

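The proteasome genes described here are the mouse genes whose symbol starts with Psma, Psmb, Psmc, Psmd or Psme followed by a digit, each read from 1 transcript cluster (the probes of 1 gene on the array). The array's gene table gave 46 such symbols among 30701 genes with a cluster of their own. Of these, 41 encode proteasome subunits, activators or, as with Psmd5 and Psmd9, assembly chaperones, and 40 of the 41 were bright enough to be tested. The other 5 are none of these: Psmc3ip and Psme3ip1, which encode partners of a subunit, and the pseudogenes Psma5-ps, Psmb5-ps and Psmb6-ps. Psmb5 and Psme2 have no value here, because their clusters carry a second gene's name (Mir686 and Psme2b).

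The RNA came from monocytes and macrophages that had been magnetically purified out of the bone marrow of 12 mice, 1 array per mouse and 3 mice per group. All mice were Rag2-/-gamma c-/- on a BALB/c background, a host that makes no T, B or natural killer cells and accepts human cells. MEC1 cells, a human B cell line that was derived from a patient's chronic lymphocytic leukemia, were given into a vein of 6 mice. Of these, 3 were killed at 21 d, the early stage, when 11 weeks old, and 3 at 31 d, the late stage, when 13 weeks old. Each stage had 3 mice of the same age without MEC1, called control mice below. MEC1 is a single cell line, and the markers used for the magnetic separation are not given in the sources used here. Values are log2 intensities on the authors' scale, so a difference of 1 is a 2-fold difference, and levels of different genes do not rank their abundance because each cluster has its own probes. The RNA is from bulk samples, in which fewer cells of a type and less RNA per cell cannot be told apart.

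The proteasome is the protease that degrades ubiquitin-tagged proteins. Its barrel-shaped core, the 20S particle, is a stack of rings of alpha subunits, which gate the entrance, and beta subunits, some of which carry the catalytic sites. The regulatory cap, the 19S particle, binds ubiquitin chains. Its base has ATPases that unfold the substrate, and its lid removes the chains. In cells of the immune system and in cells exposed to interferon gamma, the catalytic subunits Psmb6, Psmb7 and Psmb5 can be replaced in newly built particles by Psmb9, Psmb10 and Psmb8, which gives the immunoproteasome and favours peptides for MHC class I presentation. The activator subunits Psme1 and Psme2, also induced by interferon gamma, form an alternative cap. Monocytes and macrophages are among the cells that carry immunoproteasomes.

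The promoter windows of the 4 immunoproteasome genes with a value are shown beside that of Psmb6, the constitutive subunit that Psmb9 replaces, because the comparison of these genes is the one the results turn on. Each window holds the 250 bases before and the 50 after the start of the gene as RefSeq gives it on GRCm38.p6, read 5′ to 3′ on the gene's own strand, with capitals marking a motif match. Psmb8 is at chr17:34197945-34198244 on the plus strand, Psmb9 at chr17:34187281-34187580 on the minus strand, Psmb10 at chr8:105938343-105938642 on the minus strand, Psme1 at chr14:55578244-55578543 on the plus strand and Psmb6 at chr11:70525107-70525406 on the plus strand. The capitals mark the interferon-gamma activated site TTCNNNGAA in Psmb8, the CCAAT box (here on the opposite strand) in Psmb9, the core of the interferon-stimulated response element (GAAA, any 2 bases, GAAA; opposite strand) in Psme1, and the core TGACNNNGC of the antioxidant response element in Psmb6. The window of Psmb10 holds none of these letters.
Psmb8: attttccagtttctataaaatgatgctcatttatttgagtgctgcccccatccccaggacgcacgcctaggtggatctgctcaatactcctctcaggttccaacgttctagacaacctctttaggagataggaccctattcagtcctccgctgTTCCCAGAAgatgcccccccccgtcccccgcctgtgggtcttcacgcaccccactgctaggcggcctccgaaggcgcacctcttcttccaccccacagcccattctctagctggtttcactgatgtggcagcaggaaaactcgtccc
Psmb9: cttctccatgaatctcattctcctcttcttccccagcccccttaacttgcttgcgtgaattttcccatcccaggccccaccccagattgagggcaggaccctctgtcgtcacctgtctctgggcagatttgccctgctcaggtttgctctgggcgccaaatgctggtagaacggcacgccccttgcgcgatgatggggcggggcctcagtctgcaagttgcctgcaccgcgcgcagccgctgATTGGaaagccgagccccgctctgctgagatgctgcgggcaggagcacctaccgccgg
Psmb10: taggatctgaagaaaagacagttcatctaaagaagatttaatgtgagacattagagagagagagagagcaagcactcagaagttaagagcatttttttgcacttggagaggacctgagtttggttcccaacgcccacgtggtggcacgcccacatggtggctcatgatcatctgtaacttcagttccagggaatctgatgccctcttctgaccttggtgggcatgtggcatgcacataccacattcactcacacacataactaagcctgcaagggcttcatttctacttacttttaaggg
Psme1: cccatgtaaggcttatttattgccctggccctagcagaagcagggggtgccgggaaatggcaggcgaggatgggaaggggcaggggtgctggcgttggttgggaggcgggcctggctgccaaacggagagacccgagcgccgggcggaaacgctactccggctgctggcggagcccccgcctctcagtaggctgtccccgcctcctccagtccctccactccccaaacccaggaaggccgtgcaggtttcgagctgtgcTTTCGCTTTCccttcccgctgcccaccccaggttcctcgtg
Psmb6: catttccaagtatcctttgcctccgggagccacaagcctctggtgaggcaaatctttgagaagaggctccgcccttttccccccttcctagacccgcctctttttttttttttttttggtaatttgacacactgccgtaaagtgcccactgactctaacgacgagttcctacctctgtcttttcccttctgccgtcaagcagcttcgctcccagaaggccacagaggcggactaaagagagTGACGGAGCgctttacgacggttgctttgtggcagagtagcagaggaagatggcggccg

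The motifs were searched on both strands in the windows of all RefSeq genes of that table (32851 windows) and in the 36 windows found for 34 of the 41 proteasome genes. The activated site TTCNNNGAA was in the windows of Psmb8 and Psmd2 and in 8.3% of all windows. The core of the response element was in those of Psmb3, Psmd4, Psmd9 and Psme1, and in 3.44% of all. The core TGACNNNGC was in the windows of 5 proteasome genes (Psmb6, Psmc6, Psmd12, Psmd9 and Psme4) and in 12.4% of all, and CCAAT in those of 14 and in 37.4% of all. In this search the 4 motifs could overlap one another, and a match is a description of the letters, not of a bound site. By gene order, Psmb9 and Psmb8 are neighbours on chromosome 17 with only Tap1, the peptide transporter of MHC class I presentation, between them.

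The arrays differed as a whole between mice with and without MEC1, and this bears on every proteasome value. The 4 bacterial hybridisation controls averaged 10.81 and 10.62 in control mice at 21 and 31 d and 11.9 and 12.57 in mice with MEC1, with 92.1% of their variance between the groups. Bright clusters were lower with MEC1: those with a control mean over 8 and up to 15, a range that holds most proteasome genes, had a median difference of -0.38 at 21 d and -0.97 at 31 d, against 0.02 and 0.04 over all 37240 clusters tested. Single arrays also stood apart. The array of MEC1 31 d replicate 3 had the highest hybridisation controls (13.18), was the lowest of its group for 34 of the 40 proteasome genes and was the lowest for 80.1% of the clusters in that brightness range. Control 21 d replicate 1 and MEC1 21 d replicate 1 were each the lowest of their group for 38 of 40, against 60.9% and 71.2% of those clusters. The part of these array-wide differences in the results below was not tested beyond the alternative scalings given with them.

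At 21 d no proteasome gene was called as changed. Of 40 tested, 20 had a fitted difference below 0 and 20 above, as 51.7% of all clusters did, with a median of 0.00 (0.005 before rounding) and a range from -0.67 for Psme4 to 0.68 for Psma6. None passed limma's moderated test at a Benjamini-Hochberg adjusted p of 0.05, and 2 had an unadjusted p below that value. That does not show the genes to be level, since standard errors of the differences reached 0.56. Over all clusters 1.83% rose and 2.51% fell, and in the brightness range above 3.33% rose and 6.37% fell. The smallest adjusted p was 0.111, for Psmb9. Array weights called 4 rises and 7 falls at this day, while they called 22.7% of all clusters up and 20.1% down. Quantile normalization and cyclic loess each called Psmb8 and Psmb9 as rises, with 1.63% and 1.92% of all clusters rising.

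At 31 d the proteasome genes were mostly lower with MEC1 on the deposited scale: 13 of 40 fell and none rose, but under cyclic loess 1 fell and 10 rose. On the deposited scale 35 of 40 fitted differences were below 0, while 51.8% of all clusters had one above 0. The 13 were Psma3, Psmb1, Psmb6, Psmc2, Psmc3, Psmd3, Psmd4, Psmd5, Psmd6, Psmd7, Psmd9, Psme3 and Psme4. The median difference was -0.74, from -1.83 for Psmd7 to 0.50 for Psma5. Over all clusters 21.1% fell and 22.6% rose, while in the brightness range over 8 and up to 15, 54.8% fell and 6.59% rose, so the proteasome share of 32.5% lay above the first background and below the second. The 3 mice with MEC1 lay below all 3 control mice for 27 proteasome genes and above them for 1, against 28.4% and 31.2% of all clusters and, for lower, 65.1% of clusters in that range.

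Both the count and the direction depended on the scaling of the arrays. Quantile normalization gave 2 falls (Psmb6 and Psmd7) and 6 rises (Psma5, Psma6, Psmb9, Psmc4, Psmd14 and Psme1), where 15.1% of all clusters fell and 13.5% rose. Cyclic loess, which removes differences that depend on level, gave 1 fall (Psmd7) and 10 rises with a median of 0.14, the rises being those 6 and Psma7, Psmb8, Psmc1 and Psmd10; 12.7% of all clusters fell and 15.1% rose there. Centring each array on its median gave 25 falls. That centring moved the median of all clusters from 0.04 to -0.39 and the calls over all clusters to 7.48% up and 36.9% down. With the hybridisation controls as a covariate, which lie almost wholly between the groups, the median was 0.83 and no member was called, but no cluster of the whole table fell and 0.0188% rose, so that this fit does not bear on the members' calls. The count of 13 falls also changed when arrays were dropped. When a control array of 31 d was dropped, 6, 3 and 4 were called (replicate 1, 2 and 3 dropped), with the members' median at -0.74, -0.66 and -0.76 and 18.1%, 14.4% and 16.3% of all clusters falling. When an array with MEC1 of 31 d was dropped, 17, 6 and 4 were called, with medians of -0.84, -0.76 and -0.41. Dropping an array of 21 d gave between 10 and 17. Psmc2, Psmd7 and Psme3 were called in all 12 of these fits.

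**Figure D1:**
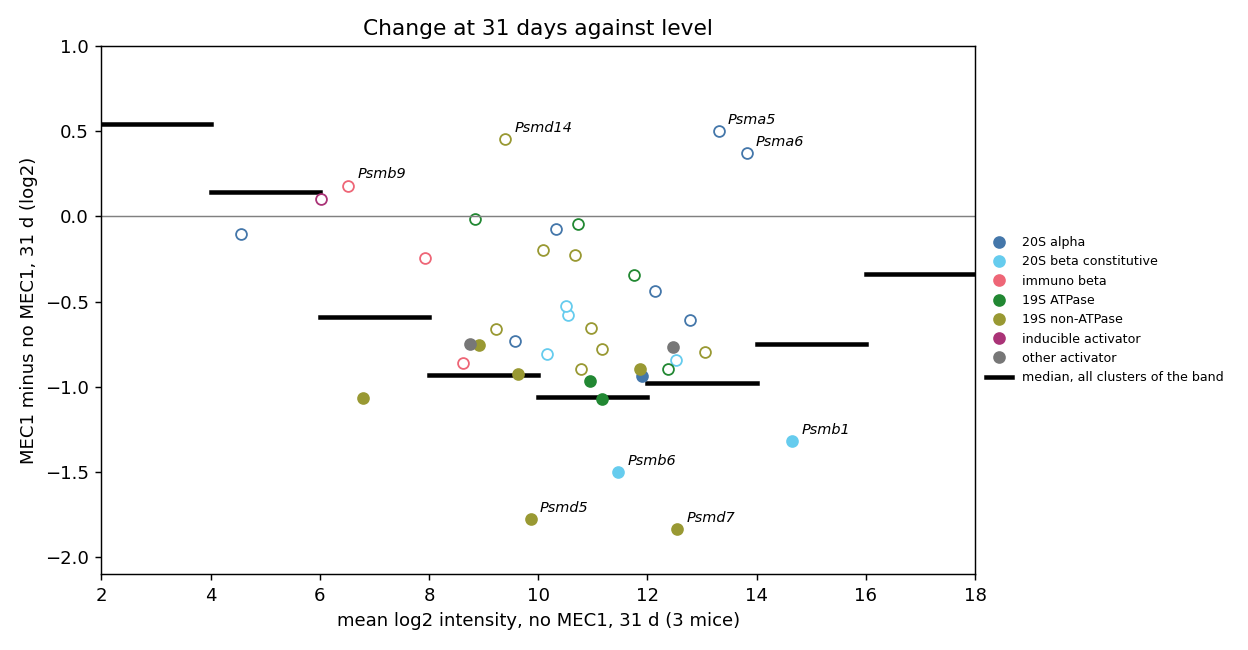
Difference at 31 d (MEC1 minus no MEC1, log2, vertical axis) of each tested proteasome gene against its mean log2 intensity in the 3 control mice (horizontal axis). Points are genes coloured by class, filled points passed the test (13 of 40, all below 0), and black bars are medians of all clusters in bands of level; most points lie above the bar of their band, and Psmd7, Psmd5, Psmb6, Psmb1 and Psmd9 lie clearly below.

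Measured against clusters of like brightness, most proteasome genes lay on the high side at both days. The difference of 34 of 40 at 31 d, and of 33 of 40 at 21 d, was above the median of all clusters within 0.5 of their own control level. The median distance was 0.26 at 31 d and 0.35 at 21 d. These are counts and medians with no test.

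Among the 8 alpha subunits of the 20S particle, 1 fell at 31 d (median difference -0.27, turning to 0.30 under cyclic loess) and none was called at 21 d (median 0.10). At 31 d 21.1% of all clusters and 54.8% of those over 8 and up to 15 fell. Psma3 was 11.70, 12.09 and 11.92 in the control mice and 11.45, 11.17 and 10.28 in those with MEC1 at 31 d, with no overlap. It fell by 0.94 ± 0.31 (SE; 1.91-fold, adjusted p = 0.0330 in limma). At 21 d its values were 11.90, 12.03 and 12.01 against 11.49, 12.07 and 12.55, and the groups overlapped.

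Psma5, another ring subunit, had the highest difference of the class at 31 d. Its values were 13.60, 13.27 and 13.06 without MEC1 and 14.21, 13.75 and 13.47 with it, with overlapping groups (difference 0.50 ± 0.26, adjusted p = 0.134 in limma). At 21 d they were 13.16, 13.35 and 13.28 against 13.31, 13.78 and 14.26 (0.52 ± 0.26, adjusted p = 0.252 in limma). Psma6 had differences of 0.68 and 0.37 at 21 and 31 d, neither called. Neither day's groups separated for these 2 genes, and both were called as rises under quantile normalization and cyclic loess at 31 d. Psma8, the alpha subunit of the testis, had its group means between 4.31 and 4.56 with a difference of -0.10 at 31 d.

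Of the 6 constitutive beta subunits with a value, 2 fell at 31 d, beside 21.1% of all clusters and 54.8% of those over 8 and up to 15. All 6 were lower with MEC1 without overlap between the groups, beside 28.4% of all clusters and 65.1% of those in that range. The median difference of the 6 was -0.82, but 0.06 with no fall under cyclic loess. Psmb6 carries the caspase-like catalytic site that Psmb9 replaces. Psmb6 in control mice at 31 d was 11.53, 11.54 and 11.34 and with MEC1 it was 10.96, 10.00 and 8.95. The 3 mice with MEC1 were spread over 2 log2 units (10.96 down to 8.95) and all lay below the controls. It fell by 1.50 ± 0.44 (2.83-fold, adjusted p = 0.0206 in limma). At 21 d the values were 11.11, 11.63 and 11.61 against 10.38, 10.88 and 11.63, which overlapped (-0.49, adjusted p = 0.516 in limma).

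Psmb7, with the trypsin-like site that Psmb10 replaces, was lower by less than the threshold required. At 31 d its values were 12.58, 12.42 and 12.56 in control mice and 11.85, 11.81 and 11.38 with MEC1, a difference of -0.84 ± 0.38 with no overlap (adjusted p = 0.0927 in limma). At 21 d they were 11.76, 12.69 and 12.89 against 11.41, 12.45 and 12.99. Control 21 d replicate 1 and MEC1 21 d replicate 1 were the low arrays of both groups here, and the groups overlapped.

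Psmb1 and Psmb4 are beta subunits without a catalytic site. Psmb1 was 14.80, 14.68 and 14.49 in control mice and 14.06, 13.83 and 12.13 with MEC1 at 31 d. It fell by 1.32 ± 0.49 (adjusted p = 0.0492 in limma), with replicate 3 far below the other 2. Psmb4 had the smallest difference of the class at 31 d, -0.52 ± 0.22, from 10.49, 10.56 and 10.47 to 10.16, 10.12 and 9.67 (adjusted p = 0.0749 in limma).

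None of the 4 immunoproteasome genes with a value was called at either day on the deposited scale (medians 0.25 at 21 d and -0.07 at 31 d). That does not show them to be level, and it depended on the scaling. Under cyclic loess Psmb8 and Psmb9 were called as rises at 21 d, and Psmb8, Psmb9 and Psme1 at 31 d. Quantile normalization called Psmb8 and Psmb9 as rises at 21 d, and Psmb9 and Psme1 at 31 d. At 31 d 15.1% and 13.5% of all clusters rose under these 2 scalings. Centring on the array median called Psmb8 and Psmb10 as falls at 31 d, beside 36.9% of all clusters. Psmb9 differed by 0.52 at 21 d and Psmb10 by -0.86 at 31 d, both without overlap, with smaller differences for Psmb8 and Psme1. The other 36 genes had medians of -0.01 and -0.75. Of these 36, 13 fell at 31 d, beside 21.1% of all clusters and 54.8% of those over 8 and up to 15. Array-wide differences depended on level, and the median difference of clusters at the control level of these 4 genes ranged at 31 d from -0.92 for Psmb10 to -0.34 for Psme1.

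Psmb9, the immunoproteasome subunit that takes the place of Psmb6, had the smallest adjusted p of all proteasome genes at 21 d. Its values were 6.16, 6.41 and 6.36 in control mice and 6.55, 6.79 and 7.14 in mice with MEC1. All 3 mice with MEC1 lay above the controls, as they did for 14.9% of all clusters. The difference of 0.52 ± 0.17 (1.43-fold) did not pass the threshold (adjusted p = 0.111 in limma), and it was called as a rise under quantile normalization, cyclic loess and array weights. At 31 d the values were 6.56, 6.45 and 6.56 against 6.86, 6.75 and 6.50, with MEC1 replicate 3 among the controls (0.18 ± 0.17, adjusted p = 0.405 in limma). Centring on the array median turned that difference to -0.25. Quantile normalization gave 0.67 and cyclic loess 0.71, both called as rises (adjusted p = 0.00938 and 0.00317 in limma).

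Psmb8, which replaces Psmb5 and carries a chymotrypsin-like site, had opposite signs at the 2 days. At 21 d its values were 7.42, 7.82 and 7.71 without MEC1 and 7.76, 7.86 and 8.36 with it, overlapping (0.34 ± 0.19, adjusted p = 0.286 in limma). At 31 d they were 8.01, 7.88 and 7.88 against 7.77, 7.79 and 7.48, all lower (-0.24 ± 0.19, adjusted p = 0.295 in limma). The second difference turned to 0.43 under quantile normalization and 0.55 under cyclic loess. The test of the change between days gave -0.59 with an adjusted p of 0.388 in limma.

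Psmb10, which replaces Psmb7, was lower at 31 d by about as much as Psmb7, without passing. Its values at 31 d were 8.63, 8.54 and 8.70 in control mice and 8.31, 7.83 and 7.15 with MEC1. No value overlapped, and the difference was -0.86 ± 0.37 (adjusted p = 0.0815 in limma). At 21 d the values were 7.85, 8.68 and 8.40 against 7.54, 8.14 and 8.97, which overlapped (-0.09, adjusted p = 0.894 in limma).

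Psme1, the alpha subunit of the interferon-inducible activator, was nearly level on the deposited scale. It was 5.88, 6.04 and 5.95 against 5.99, 6.12 and 6.25 at 21 d, and 6.06, 5.99 and 6.00 against 6.24, 6.01 and 6.10 at 31 d. The groups overlapped at both days. The differences were 0.16 ± 0.13 and 0.10 ± 0.13 (adjusted p = 0.455 and 0.540 in limma), and the 95% interval at 31 d ran from -0.19 to 0.39. The difference at 31 d was 0.43 under quantile normalization and 0.46 under cyclic loess, both called as rises. It was -0.33, not called, with arrays centred on their median.

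**Figure D2:**
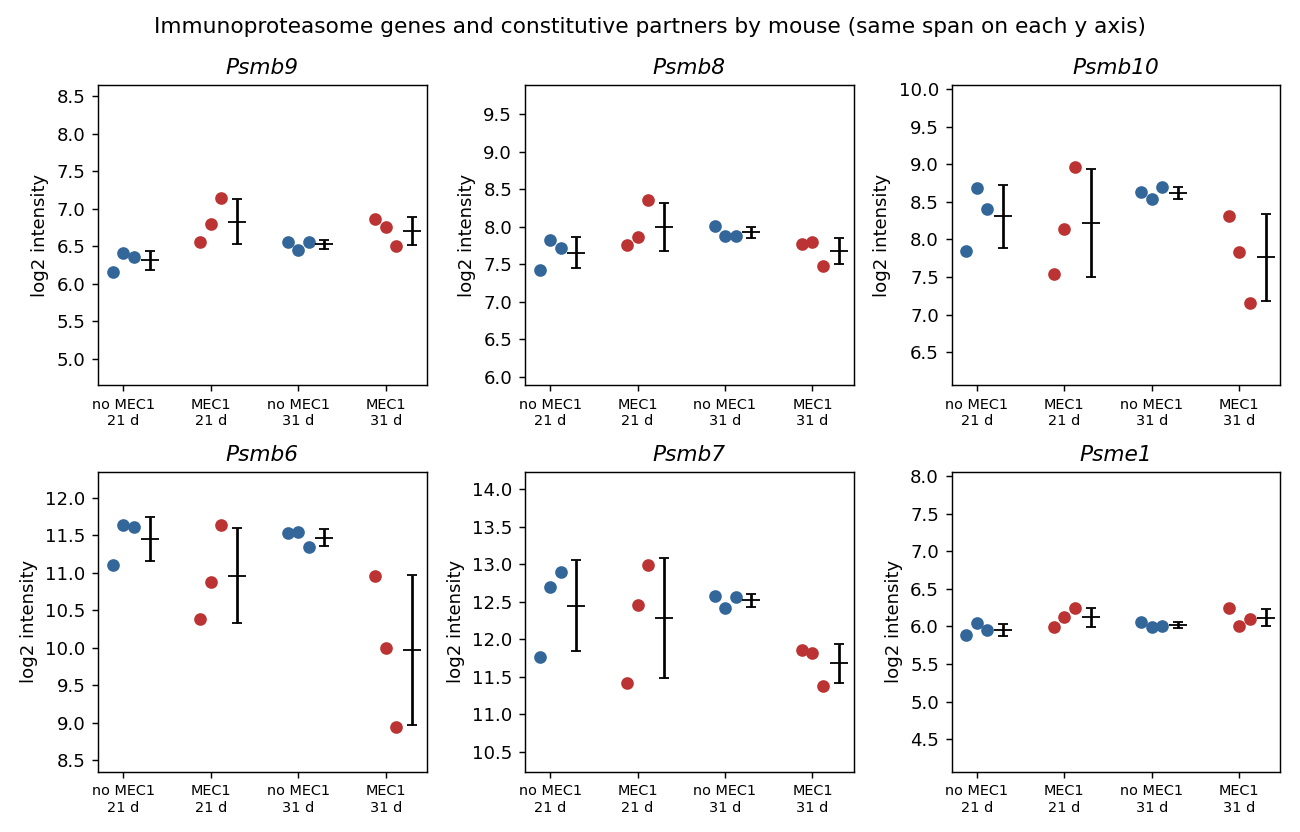
Log2 intensity per mouse (vertical axis) of immunoproteasome genes and of their constitutive partners in the 4 groups, 1 point per mouse (blue without MEC1, red with MEC1) beside the mean and SD of the 3; all panels span the same range. Psmb9 sits higher in all 3 mice with MEC1 at 21 d, and Psmb6 is lower in all 3 at 31 d, down to 8.95.

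Within each array, the mean of Psmb8, Psmb9 and Psmb10 minus the mean of Psmb6 and Psmb7 was higher with MEC1 at both days. Each gene keeps its own probes across arrays, so mice can be compared on the score, while its level cannot be read. The comparison still holds array-wide differences that depend on level. At 21 d the score was -4.29, -4.52 and -4.76 in control mice and -3.61, -4.07 and -4.15 with MEC1, 0.58 higher. At 31 d it was -4.32, -4.36 and -4.24 against -3.76, -3.45 and -3.12, 0.86 higher. The groups did not overlap at either day, and no p is given, since the members were chosen with results known. The 2 sides differed by day. The immunoproteasome mean was 0.26 higher at 21 d and 0.31 lower at 31 d (-0.3077), with overlapping groups. The constitutive mean was 0.33 lower (-0.325) and 1.17 lower (-1.17), without overlap at 31 d alone. At 31 d clusters at the control level of Psmb8, Psmb9 and Psmb10 had median differences of -0.83, -0.47 and -0.92. At the levels of Psmb6 and Psmb7 these medians were -1.06 and -1.02. Under cyclic loess the score was 0.64 higher with MEC1 at 21 d and 0.72 higher at 31 d. The part of level in the score was not tested beyond the other scalings.

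The 2 replacement pairs with both partners measured did not do the same. Psmb9 minus Psmb6 was 1.00 higher with MEC1 at 21 d and 1.68 higher at 31 d, without overlap. Psmb10 minus Psmb7 was 0.07 higher at 21 d and differed by -0.02 at 31 d, with overlap. The higher score thus rests on the first pair and on Psmb8, which has no measured partner, and not on the second pair. Clusters at the level of Psmb9 and of Psmb6 also differed, with median differences of -0.47 and -1.06 at 31 d, a gap of the same sign as that of the pair.

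The 19S classes (Psmc and Psmd) made up 20 of the 40 genes tested and 8 of the 13 falls at 31 d (median -0.79), with none at 21 d. Their share of 40% lay between the 21.1% of all clusters and the 54.8% of those over 8 and up to 15 that fell. Psmd5 and Psmd9, which are assembly chaperones, are among the 8. Under cyclic loess the medians of the ATPases and of the other 19S genes turned to 0.25 and 0.08. Of the 6 ATPases, Psmc2 and Psmc3 fell. Psmc3 was 11.08, 11.29 and 11.11 in control mice and 10.54, 10.29 and 9.43 with MEC1, with no overlap (fell by 1.07 ± 0.37, 2.10-fold, adjusted p = 0.0390 in limma). At 21 d it was 10.30, 11.20 and 11.17 against 9.98, 10.80 and 11.28, which overlapped. Psmc2 fell by 0.96 ± 0.26 (adjusted p = 0.0131 in limma). Its 3 mice with MEC1 were 10.17, 9.92 and 9.84 against 10.94, 10.95 and 10.93. It was called as a fall in 20 of 23 alternatives. It was not called under quantile normalization, under cyclic loess or with the hybridisation controls as a covariate.

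Psmc4, another ATPase, was at the same level in both groups at 31 d: 8.79, 8.89 and 8.83 without MEC1 and 8.87, 8.77 and 8.83 with it. Its difference of -0.01 ± 0.21 had a 95% interval from -0.48 to 0.45 (adjusted p = 0.962 in limma), while clusters at its level had a median of -0.91. At 21 d it was 8.65, 8.60 and 8.97 against 8.60, 8.83 and 9.50. It turned into a rise of 0.71 and 0.89 under quantile normalization and cyclic loess at 31 d.

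Of the 14 non-ATPase genes of the 19S class, Psmd3, Psmd4, Psmd5, Psmd6, Psmd7 and Psmd9 fell at 31 d (median of the class -0.79). In this class 11 of 14 were lower without overlap, beside 28.4% of all clusters and 65.1% of those over 8 and up to 15. Psmd7, a lid subunit, had the largest fall of all proteasome genes. It was 12.43, 12.55 and 12.66 in control mice and 11.41, 10.88 and 9.85 with MEC1. All 3 mice with MEC1 lay at least 1 unit below the controls' lowest (12.43), with replicate 3 the lowest. It fell by 1.83 ± 0.42 (3.56-fold, adjusted p = 0.00698 in limma), and it was called as a fall in 22 of the 23 alternatives, all but the one with the hybridisation controls as a covariate (0.94 there). At 21 d it was 11.74, 12.51 and 12.58 against 11.26, 11.85 and 12.64, which overlapped (-0.36, adjusted p = 0.614 in limma).

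Psmd5 is an assembly chaperone of the 19S base rather than a part of the finished particle. It was 10.01, 9.65 and 9.92 in control mice and 8.77, 8.08 and 7.40 with MEC1 at 31 d, and it fell by 1.78 ± 0.56 (adjusted p = 0.0260 in limma). In the control mice of 21 d it was 7.84, 10.22 and 9.72, so that replicate 1 of that group was as low as the mice with MEC1 at 31 d. Psmd9, also a chaperone of the base, fell by 1.07 ± 0.35 (adjusted p = 0.0309 in limma). Psmd4, a ubiquitin receptor of the cap, fell by 0.76 ± 0.26 (adjusted p = 0.0367 in limma).

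Psmd14, the lid's deubiquitinase, differed in sign from the rest of its class. It was 9.12, 9.62 and 9.44 in control mice and 9.82, 9.94 and 9.78 with MEC1 at 31 d, with no overlap. The difference of 0.45 ± 0.17 missed the threshold (adjusted p = 0.0553 in limma), and it was called as a rise in 7 of 23 alternatives. At 21 d it was 9.78, 9.79 and 9.95 against 9.91, 10.44 and 10.19 (0.34 ± 0.17, adjusted p = 0.265 in limma). Its controls were also lower at 31 d than at 21 d by 0.45 (-0.4467), the smallest adjusted p of that comparison (0.664 in limma).

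The 2 activators that are not part of the interferon-inducible cap both fell at 31 d, beside 21.1% of all clusters and 54.8% of those over 8 and up to 15. Psme3, the nuclear activator, was 12.61, 12.36 and 12.46 without MEC1 and 11.82, 11.67 and 11.64 with it, with no overlap and little spread. It fell by 0.77 ± 0.20 (1.70-fold, adjusted p = 0.0126 in limma), and its 21 d values were 12.21, 12.32 and 12.44 against 11.74, 12.18 and 12.62, which overlapped. Cyclic loess turned its difference at 31 d to 0.06.

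Psme4 encodes a large nuclear activator known for the degradation of acetylated histones. It had the lowest difference of all proteasome genes at 21 d: 9.51, 8.77 and 8.84 without MEC1 against 8.01, 8.61 and 8.48, with no overlap, as for 13.7% of all clusters. The difference was -0.67 ± 0.23 (adjusted p = 0.116 in limma). At 31 d it was 8.54, 9.01 and 8.68 against 7.97, 7.92 and 8.10, with no overlap again, and it fell by 0.75 ± 0.23 (adjusted p = 0.0242 in limma), a difference that cyclic loess turned to 0.14. The values of the 2 days were close (change between days -0.07, adjusted p = 0.930 in limma).

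**Figure D3:**
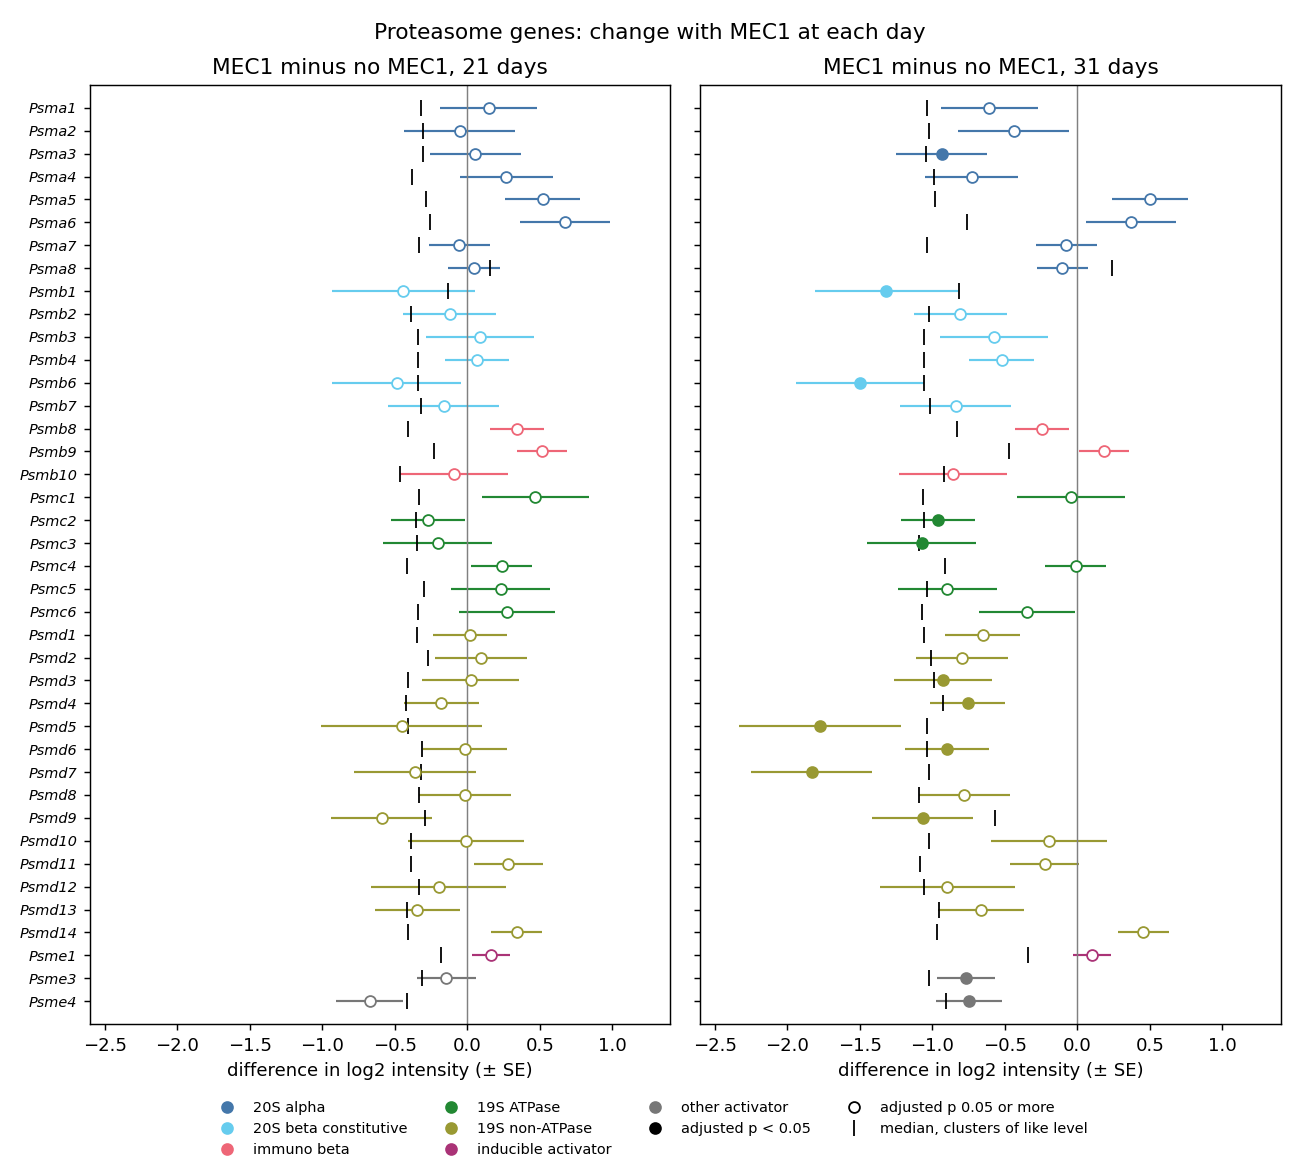
Difference with MEC1 (log2, horizontal axis) of each tested proteasome gene at 21 d and at 31 d, arranged by class, with bars for the SE, filled points for an adjusted p under 0.05 and black ticks for the median of all clusters within 0.5 of the gene's control level. At 21 d the points lie on both sides of 0, from -0.67 to 0.68, and at 31 d 35 of 40 lie below it.

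Psmb11, the beta subunit of the thymus, was not bright enough to be tested, with control means of 2.93 and 2.84 and means of 3.14 and 3.21 with MEC1. Of the 5 genes that match by name and are outside the 41 proteasome genes, Psme3ip1 fell at 31 d by 1.24 ± 0.40 (adjusted p = 0.0291 in limma). None of the pseudogenes was called at either day. Psmb5-ps differed by -0.79 at 31 d, lower without overlap, as were 65.1% of clusters over 8 and up to 15. The probes of the pseudogenes could also read the parent gene, so Psma5, Psmb6 and their pseudogenes are uncertain to that extent. Psma5-ps differed by -0.87 and Psma5 by 0.50 at 31 d.

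The fit's test of whether the difference with MEC1 changed between 21 and 31 d called no proteasome gene, as it called 0.00269% of all clusters (1 cluster). The fitted change was below 0 for 39 of 40 genes, with a median of -0.65 (-0.645), and 5 had an unadjusted p below 0.05. Over all clusters the median change was 0.04. Bright clusters also moved down: those over 8 and up to 15 in the controls of each day had median differences of -0.38 at 21 d and -0.97 at 31 d. The shift of the proteasome genes is thus not shown to be particular to them. The largest was that of Psmd7, -1.47, with an adjusted p of 0.365 in limma. The falls at 31 d are therefore not shown to differ from the values at 21 d. Without MEC1, control mice at 31 d against 21 d differed by a median of 0.14 with no gene called, 1 with an unadjusted p below 0.05 and 0.00806% of all clusters called.

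The spread within groups was uneven. The median SD of the proteasome genes was 0.39 in the control mice of 21 d, 0.11 in those of 31 d, 0.47 with MEC1 at 21 d and 0.39 with MEC1 at 31 d. In clusters of the brightness range it was 0.32, 0.21, 0.43 and 0.49. The genes of a group moved together by array: MEC1 21 d replicate 3 was the highest of its group for 38 of 40 and MEC1 31 d replicate 1 for 33 of 40, against 64.3% and 56.7% of the clusters in the range.

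**Figure D4:**
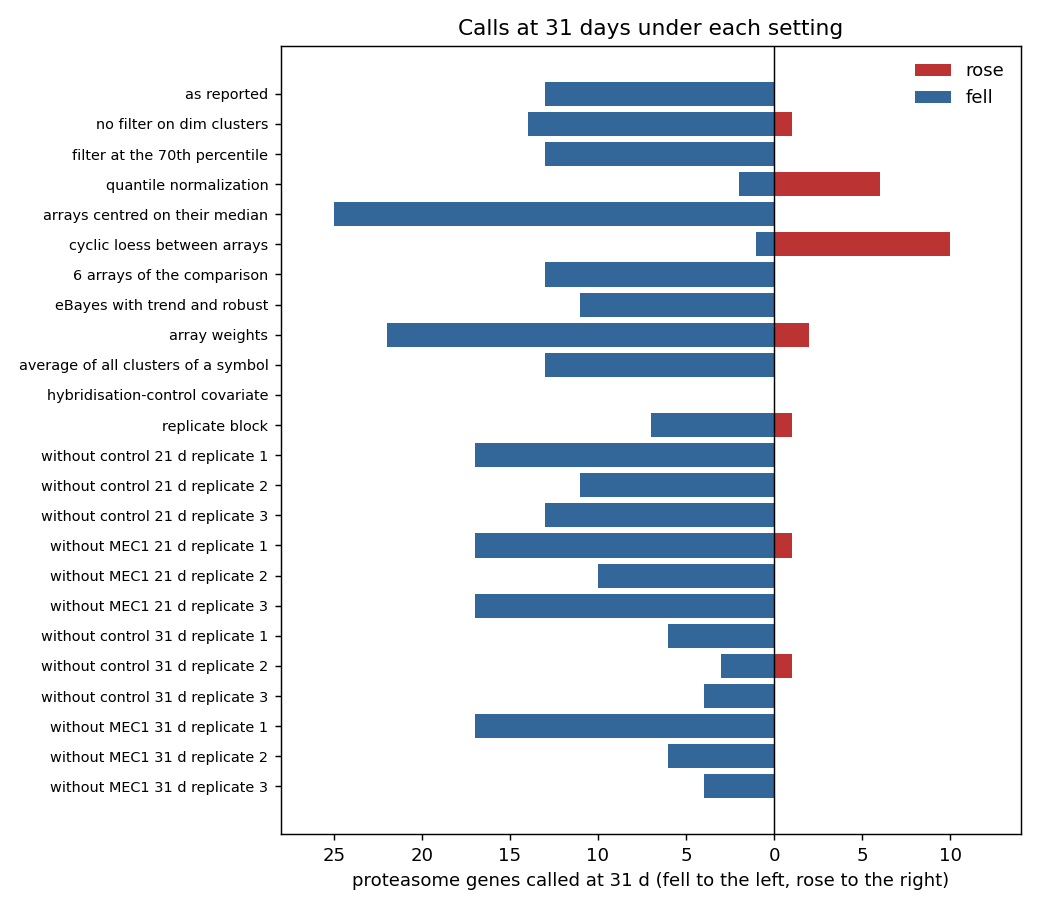
Number of the proteasome genes called as rises or falls at 31 d (horizontal axis) as reported and under each alternative, 1 bar per setting, with falls to the left and rises to the right. As reported there are 13 falls and no rise, cyclic loess 1 fall and 10 rises, and the settings that leave out 1 array between 3 and 17 falls.

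The genes around the proteasome were lower at 31 d as well, on the deposited scale. Of 33 listed assembly factors, cap partners, ubiquitin genes and shuttles, regulators and interferon-side genes, 23 were tested, and none was called at 21 d. At 31 d 15 fell and none rose (median -1.15), beside falls in 21.1% of all clusters and 54.8% of those over 8 and up to 15. Under quantile normalization 8 fell and 1 rose (median -0.50), beside falls in 15.1% of all clusters, and under cyclic loess 6 fell and 1 rose (median -0.36), beside 12.7%. Among the assembly factors and the inhibitor, 4 of 6 fell on the deposited scale. Psmg2, an assembly chaperone of the alpha ring, fell by 2.05 ± 0.64 (adjusted p = 0.0253 in limma). Pomp, the maturation protein of the 20S particle, fell by 1.98 ± 0.47 (adjusted p = 0.00790 in limma). The other falls there were those of the chaperone Psmg1 (-1.15) and the inhibitor Psmf1 (-1.21). Among the partners of the cap 4 of 6 fell, and the largest was that of the ubiquitin ligase Ube3c, which fell by 1.68 ± 0.22 (adjusted p = 0.000609 in limma). All 4 shuttles tested, which bring ubiquitin-tagged proteins to the cap, fell, and Ubqln2 fell by 2.01 ± 0.37 (adjusted p = 0.00249 in limma).

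Nfe2l1, the transcription factor that raises proteasome genes when proteasome activity is short, had a difference of 0.11 (adjusted p = 0.499 in limma), and the related factor Nfe2l2 fell by 0.72 ± 0.23 (adjusted p = 0.0293 in limma). On the interferon side, Irf8, a factor of the monocyte lineage, fell by 2.62 ± 0.38 (adjusted p = 0.000880 in limma) and the receptor chain Ifngr1 fell by 1.30 ± 0.36 (adjusted p = 0.0155 in limma). Irf1, an interferon-induced activator of Psmb9, differed by -0.01 at 31 d and 0.16 at 21 d, neither called. The remaining genes of this list, among them the 5 ubiquitin genes, are not analysed here.

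Markers of several cell types differed between the groups. At 31 d, as above, 21.1% of all clusters and 54.8% of those over 8 and up to 15 fell, and 22.6% of all clusters rose. Of the erythroid markers 11 of 11 tested fell at 31 d (median -6.67, and -5.74 under cyclic loess) and 5 at 21 d, and their mean level per array was between 11.65 and 12.33 in control mice of 31 d and between 5.13 and 5.97 with MEC1. The proliferation genes fell in 7 of 7 (median -2.03), the neutrophil genes in 6 of 12 (median -1.26) and the dendritic cell genes in 4 of 5 (median -2.20) at 31 d, so that the neutrophil share lay near that of bright clusters. Of the markers of the purified cells themselves, 7 of 8 fell (median -1.56), among them Csf1r, the receptor of the monocyte growth factor, which fell by 1.51 ± 0.34 (adjusted p = 0.00646 in limma). Cx3cr1, a chemokine receptor of monocytes, fell by 2.27 ± 0.25 (adjusted p = 0.000348 in limma). The mean level of these 8 per array was between 12.73 and 12.81 in control mice of 31 d and between 10.13 and 11.80 with MEC1. Of the B cell markers 3 of 5 rose (median 0.78), and of the T and natural killer cell markers 3 of 3 tested rose (median 1.17) while Cd3e, Cd8a, Ncr1 and Klrb1c were below the filter. Several of these markers are dim, and clusters with a control level up to 4 had a median difference of 0.54 at 31 d; with arrays centred on their median, 2 B cell markers rose and 1 fell. Under quantile normalization, centring and cyclic loess the medians of the marker lists kept these signs at 31 d. The part of these marker differences in the proteasome values was not tested.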

How the data were processed

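Log2 intensities per transcript cluster were deposited by the authors for 12 arrays (biotin-labelled RNA on a mouse whole-transcriptome array). The submitters' processing notes list Expression Console and RMA, without a version. Control features (6732 of 72688) were left out. Symbols came from the platform table: 31258 clusters had 1, 1492 several and 33206 none. Older symbols (2094) were updated through RefSeq, and none was named from a cluster with several.

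A cluster was tested if above its array's median in 3 or more arrays (37240 of 65956). Means of 4 groups were fitted with limma 3.58.1 in R 4.3.3, with empirical Bayes moderation. The tests were two-sided, with Benjamini-Hochberg adjustment over all tested clusters and a threshold of 0.05. The fit was tested on simulated data. Errors beside differences are SE, with 3 mice per group; the number of arrays limits the precision.

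The members and lists were chosen with earlier results of these data known. Genes given in full were the immunoproteasome genes, Psmb6, Psmb7, Psme3, Psme4 and the highest and lowest difference at 31 d of each class; in the list around the proteasome, the largest called rise and fall of each subgroup. Psma6, Psmb1, Psmc2, Psmd4, Psmd5, Psmd9 and some genes of the lists were added after their values were seen. The score of immunoproteasome against constitutive subunits was planned with Psmb5, which has no cluster of its own. Alternatives changed the filter, scaling, variance model, array weights, cluster choice, arrays in the fit (each left out in turn), a covariate and the replicate block.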

Additional observations from a re-analysis of the deposited data

Results flagged for a closer look

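The 4 bacterial hybridisation controls are added to each sample before hybridisation and are not mouse genes. They differed between the groups: their mean was 1.11 higher with MEC1 at 21 d (1.105; 11.9 against 10.81) and 1.96 higher at 31 d (1.9567; 12.57 against 10.62), with no overlap between the 3 arrays of each group at either day. These controls are outside the proteasome measurements and stand here as values. Groups of 3 mice are too small for the outlier test used on larger groups.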

How the results depend on the processing

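Settings were changed 1 at a time. The difference with MEC1 in the score of immunoproteasome minus constitutive subunits stayed above 0 with other scalings, the average of a symbol's clusters and each array left out, and with Psmb9 and Psmb10 against Psmb6 and Psmb7 only, a choice made after seeing the data (0.54 and 0.83 at 21 and 31 d). No member was called in the change between days or between the control groups in the alternatives run. At 21 d the members' rises and falls were 0 except for 2 rises under quantile normalization and under cyclic loess, and 4 rises and 7 falls with array weights. The median at 21 d, 0.005, turned to -0.17 with array weights, -0.20 (-0.195) with arrays centred on their median and -0.01 with the 70th percentile filter, and ran from -0.25 to 0.24 when single arrays were left out. At 31 d (13 falls, no rise), there was 1 rise with no filter, and there were 2 rises and 22 falls with array weights, 25 falls with centring, 6 rises and 2 falls with quantile normalization, 10 rises and 1 fall with cyclic loess (median 0.14), and no fall with the hybridisation-control covariate (median 0.83). Leaving out single arrays gave 3 to 17 falls and 0 to 1 rises. The covariate is nearly collinear with the groups (92.1% of its variance between them), and no cluster of the table fell with it.

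Single genes changed sign as follows. Centring gave -0.04 (-0.0367), -0.14 and -0.13 for Psme1, Psma3 and Psmb4 at 21 d, and -0.25 and -0.33 for Psmb9 and Psme1 at 31 d; array weights gave -0.14 for Psmb4 at 21 d. Quantile normalization gave 0.29 for Psmb10 at 21 d, and 0.43, 0.091 and 0.71 for Psmb8, Psmb4 and Psmc4 at 31 d. Cyclic loess gave 0.24, 0.040, 0.063 and 0.081 for Psmb10, Psmb7, Psme3 and Psmc3 at 21 d, and 0.55, 0.060, 0.14, 0.42 and 0.89 for Psmb8, Psme3, Psme4, Psmb4 and Psmc4 at 31 d. The covariate gave 1.08, 1.45, 0.40, 0.092, 1.01 and 1.21 for Psmb10, Psmb6, Psmb7, Psme3, Psmc3 and Psmd7 at 21 d, and 0.37, 1.22, 1.93, 0.16, 1.49, 0.40, 0.30, 1.07 and 0.94 for Psmb8, Psmb10, Psmb6, Psmb7, Psma3, Psmb4, Psmc4, Psmc3 and Psmd7 at 31 d. Without single arrays, the 21 d differences ran from -0.14 to 0.20 for Psmb4, -0.47 to 0.25 (0.245) for Psmb10, -0.52 to 0.27 for Psmb7, -0.36 to 0.077 for Psme3, -0.50 to 0.15 for Psmc3, -0.20 to 0.33 for Psma3 and -0.03 (-0.025) to 0.43 (0.425) for Psmc4, and at 31 d from -0.04 to 0.013 for Psmc4. The cause of these changes was not tested.

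Same-numbered arrays are of different mice, and the labels do not say whether they were handled together, which was not tested. Their deviations correlated between -0.36 and 0.42 over all pairs of groups. Between the control and MEC1 groups of 21 d the correlations were 0.36, -0.17 and 0.42 (replicates 1, 2 and 3). Between those of 31 d they were -0.01, 0.16 and 0.02. With the replicate block 7 members fell and 1 rose (Psmd14) at 31 d, and none at 21 d. Dim clusters, such as Psmb11 and the T cell markers, have values near the array's floor.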
